A study of Mus musculus with 12 samples.

Results

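Organoids grown from the foliate papilla (FoP) of the mouse tongue, with and without a knock-out of Foxe1, were compared by RNA sequencing in 6 of the 12 libraries of the series. Wild type FoP organoids gave 2 libraries, numbered 1 and 2, with no modification recorded. They are treated here as duplicates of 1 culture. Organoids of the genotype Foxe1 knock-out gave 4 libraries, duplicates 1 and 2 of clone 2.4 and duplicates 1 and 2 of clone 2.5, with a genetic modification recorded as the treatment. The labels give tongue as the tissue and FoP organoid as the material. How the gene was altered, the strain, sex and age of the animals, and whether the wild type culture was itself grown from a single cell are not given in the sources used here. The 6 libraries were compared over all genes with at least 10 counts in at least 2 of them, which were 16282 of the 55367 genes in the deposited table. The remaining 6 libraries hold the same layout for organoids of the circumvallate papilla (CVP), with clones 2.9 and 2.10. This is the taste papilla at the back of the tongue. The CVP libraries served to test where the FoP response differed. They were also fitted together with the FoP libraries, so they enter the scaling and the estimate of spread behind each FoP test. Each clone is 1 cell line and its duplicates share that origin, so the p-values below measure the spread between these libraries and not between animals or separate derivations.

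Foxe1 is a single-exon forkhead transcription factor best known for its part in the formation of the thyroid and the palate. The foliate papilla is a set of ridges on the side of the tongue whose trenches hold taste buds and receive ducts of minor salivary glands, so its epithelium can hold stem cells, keratinocytes, taste cells and gland cells. Organoids of such tissue are grown in a matrix with growth factors and consist largely of dividing basal-type epithelial cells that differentiate in part. The design text of the series names Foxe1 as a candidate regulator of cell fate in this tissue, and the question put to these libraries is what changes when it is knocked out.

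The 6 libraries held about 59260900 to 68431800 counts each and 21421 to 21884 detected genes. Mitochondrial genes took 0.589% to 0.740% of the counts. On a principal component analysis of the 6 libraries, the first component (69.9% of the variance) separated wild type from knock-out, and the second (22.1%) separated clone 2.4 from clone 2.5. The duplicates of a culture differed by more than counting noise, with a chi-square per degree of freedom of 8.17 in wild type, 16.4 in clone 2.4 and 14.7 in clone 2.5. Values are counts-per-million levels (CPM) scaled by TMM, a normalisation for library composition, and log2 fold changes with their standard error from edgeR's quasi-likelihood test, called at a Benjamini-Hochberg adjusted p of 0.05. CPM is not corrected for gene length, so levels are compared between libraries and not between genes.

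The libraries carried the markers of tongue epithelium. Epcam, an epithelial adhesion protein, stood at 1273 and 1332 CPM in wild type, 1240 and 1281 in clone 2.4, and 1430 and 1379 in clone 2.5. The adherens junction cadherin Cdh1 stood between 880 and 954 in the 6 libraries. Neither passed the test. Krt5 and Krt14, keratins of basal cells, ranged from 4914 to 6261 and from 2689 to 3897, and neither passed the test over both clones, although Krt5 was higher in clone 2.5 alone (log2 fold change 0.24, adjusted p = 0.021). Trp63, the master factor of stratified epithelium, was at 401 and 445 in wild type, 635 and 554 in clone 2.4, and 553 and 515 in clone 2.5, and rose by 0.42 ± 0.08 (adjusted p = 0.0023), with both clones agreeing. Krt18, a keratin of simple epithelium, fell by 0.34 ± 0.10 (adjusted p = 0.026) in both clones, a call that was lost without wild type duplicate 1 or 2 or clone 2.4 duplicate 1 (adjusted p up to 0.149). Its partner Krt8 was lower in clone 2.4 alone.

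Markers of cells that an epithelial organoid should lack were followed in every library. Of 15 fibroblast markers 9 were tested, 3 were higher (33.3%, against 14.2% over all genes tested) and 1 lower (11.1%, against 16.2%). Both clones agreed for 2 of the 3 and for the 1. The clones parted, with median log2 fold changes of 0.54 in clone 2.4 and -0.38 in clone 2.5. In a direct test 3 of the 9 differed between them, against 7.68% of all genes. The summed level was 1764 and 1572 CPM in wild type, 6855 and 6518 in clone 2.4, and 3285 and 3447 in clone 2.5. It consisted mostly of Postn and Fn1, described further down. Pdgfra, a defining fibroblast receptor, was at 1.36 and 0.856 in wild type and 2.53 to 3.95 in the knock-out, and Dcn, decorin, fell from 1.25 and 1.07 to 0.232 to 0.382. Of 19 immune markers 7 were tested and 2 fell (28.6%, against 16.2%), both clones agreeing, with sums of 253 and 282 against 139 to 220. These were Lyz2, a macrophage lysozyme, and Cd68, a lysosomal protein of macrophages at 14.3 and 11.9 in wild type and 3.77 to 4.99 in the knock-out. Lyz2 had 532 counts in wild type and none in any of the 4 knock-out libraries, so that, with 3 counts in each of them as the floor, it was at least 86.4-fold lower. Of 12 endothelial markers 6 were tested and 2 rose (33.3%, against 14.2%), both clones agreeing. These were Flt1 (81.5 and 74.6 against 124 to 143) and Pecam1 (0.304 and 0.355 against 1.67 to 2.70). The endothelial sums were 84.9 and 78.1 against 128 to 148. None of the 9 nerve and glia markers tested of 14 passed edgeR's test over both clones. There, 1 was at an unadjusted p under 0.05 and 1 was called lower by DESeq2's Wald test. Taken clone by clone, 1 was called lower in both clones and 2 were called in 1 clone alone. Their sum was 188 and 198 against 127 to 137. None of the 3 muscle markers tested of 14 passed edgeR's test over both clones, at 0 with an unadjusted p under 0.05 and 0 by DESeq2. Of these 3, 1 was called in 1 clone alone, and their sums were 1.46 to 2.47. Lyz2, Cd68 and Flt1 passed with the duplicates summed. The part of these cells in the results below was not tested. In bulk libraries, fewer cells of a type and less RNA per cell cannot be told apart.

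Foxe1 itself, at chr4:46343644-46345774 of GRCm38.p6, did not separate the groups. It stood at 16.3 and 16.0 CPM in wild type, 22.3 and 20.0 in clone 2.4, and 11.2 and 11.4 in clone 2.5. The transcript was therefore above wild type in one clone (0.39, adjusted p = 0.0049) and below it in the other (-0.51, adjusted p = 0.00086), and over both clones the difference was 0.01 ± 0.52 (adjusted p = 0.991). Gene counts over the whole transcript do not show a short edit, so these values do not test whether a functional protein was lost, and the groups are named here by their labels.

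Knock-out and wild type differed in 4955 of the 16282 genes (30.4%), of which 2314 were higher (14.2%) and 2641 lower (16.2%). A difference of more than 2-fold was reached by 412 genes called higher (2.53%) and 554 called lower (3.4%). Taken one at a time against the same 2 wild type libraries, clone 2.4 differed in 5575 genes (34.2%) and clone 2.5 in 5918 (36.3%). Both clones agreed, with a call in the same direction in each, for 3970 genes (24.4%), 1786 of them higher (11%) and 2184 lower (13.4%). Of the 4955 genes called over both clones, 3827 were also called in the same direction in each clone (23.5% of all genes tested). Another 3405 genes (20.9%) were called in 1 clone and not in the other, but for only 760 of these (4.67%) did the clones themselves differ in a direct test. Opposite calls numbered 74 (0.454%), and 8833 genes were called in neither clone (54.3%). Both clones passed 2-fold, with the call over both, for 261 higher genes (1.6%) and 430 lower ones (2.64%). Tested against each other, clone 2.5 was above clone 2.4 in 609 genes (3.74%) and below it in 641 (3.94%). The clones share their wild type libraries, so their agreement is not independent. The shares of each gene list below stand against the 14.2% higher and 16.2% lower over all genes tested.

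The wild type duplicates and the choice of the unit of replication set how many genes pass. Without wild type duplicate 1 the count over both clones fell from 4955 to 2780, and without duplicate 2 to 2732. With the duplicates of each culture summed, so that 1 wild type culture stood against 2 clones, 374 genes remained past the threshold. Of the 143 genes named in the text and called over both clones, 37 passed in that summed fit and 103 kept their call whichever single library was left out. With limma's voom and the culture as a block (correlation between duplicates 0.267), 3526 genes passed, and 16 of the named genes lost their call. Of these 16, Lgr5, Cldn2 and Muc5b had kept it without any single library. The genes that passed in the summed fit and those that lost their call are named in each paragraph below.

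The 12 leading genes in each direction, taken by size among well-expressed genes that passed the test in both clones with all 4 knock-out libraries beyond both wild type libraries, included on the rising side secreted matrix and signalling proteins and membrane receptors. Igfbp5, a secreted binding protein of insulin-like growth factors, was at 27.4 and 34.2 CPM in wild type, 419 and 427 in clone 2.4, and 727 and 801 in clone 2.5. It rose by 4.27 ± 0.40 (adjusted p = 0.0001), and both clones agreed. Bbox1, the last enzyme of carnitine synthesis, was at 6.51 and 5.67 in wild type, 80.8 and 75.6 in clone 2.4, and 66.4 and 62.9 in clone 2.5, a rise of 3.55 ± 0.29 (adjusted p = 3.8e-05). For both genes the lowest knock-out library lay far above the highest wild type library, where the choice of leading genes already required no overlap. The matrix proteins Spon1 (2.86 ± 0.48) and Matn4 (2.74 ± 0.80) rose, as did Wif1, a secreted Wnt inhibitor (3.16 ± 0.59), and Foxf2, a forkhead factor of palate and gut mesenchyme (2.74 ± 0.37). Receptors and channels in the group were Gria3, a glutamate receptor subunit (2.48 ± 0.38), Ntrk2, the receptor for the neurotrophin BDNF (2.40 ± 0.33), Gfra1, the co-receptor for GDNF (2.39 ± 0.48), Kcne3, a potassium channel subunit (2.37 ± 0.47), and Slc6a14, an amino acid transporter (2.54 ± 0.39). Postn, the matricellular protein periostin, was at 935 and 826 in wild type, 5942 and 5185 in clone 2.4, and 2777 and 2905 in clone 2.5 (2.26 ± 0.36). All 12 agreed in direction in both clones, which the choice required. In a direct test clone 2.4 was higher than clone 2.5 for Foxf2, Postn and Gfra1, and clone 2.5 the higher for Matn4 and Kcne3. Matn4 lost its call without either wild type duplicate or either duplicate of clone 2.5 (adjusted p up to 0.159), and Gfra1 without wild type duplicate 1 (0.0511). Of the 12, Slc6a14 passed with the duplicates summed.

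**Figure D1:**
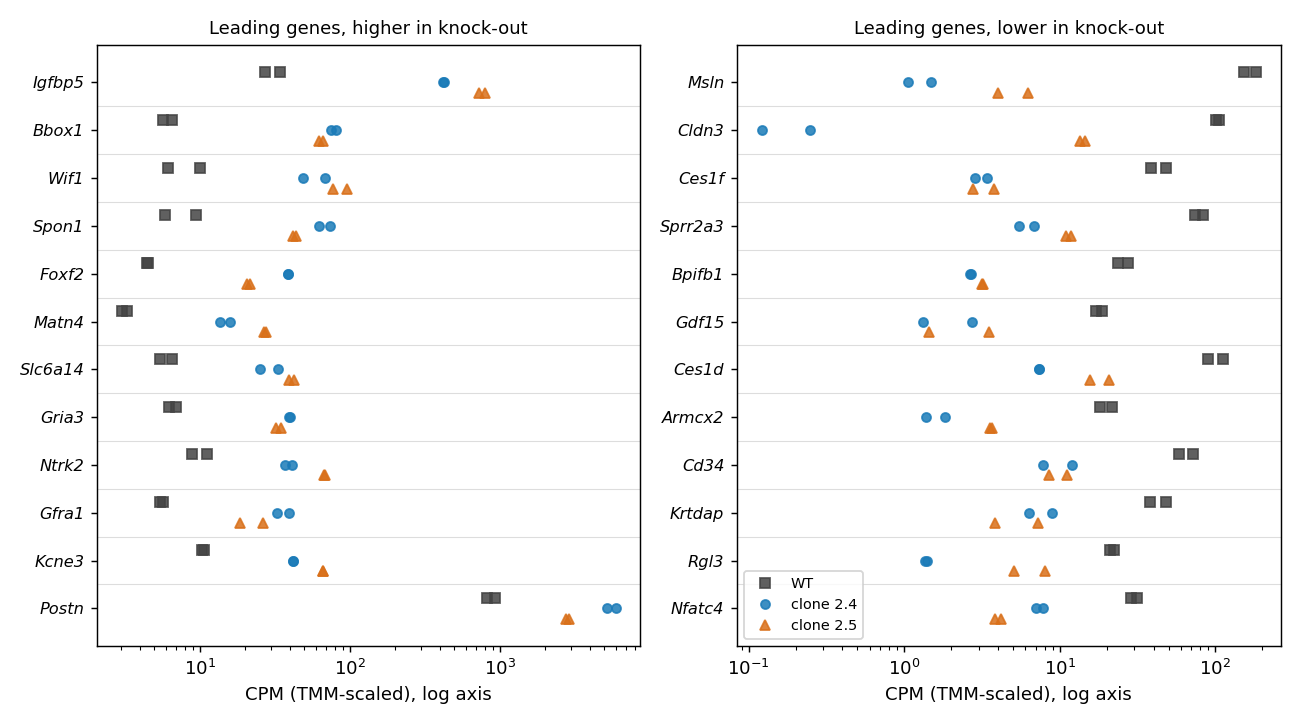
Each row is a gene and each mark is 1 library, with TMM-scaled CPM on a log axis for wild type (squares, 2 libraries), clone 2.4 (circles, 2) and clone 2.5 (triangles, 2). The left panel holds the 12 leading genes that were higher in the knock-out and the right panel the 12 that were lower, chosen so that the groups do not overlap, so the gap itself is no test. The clones lie apart most for Cldn3, at 0.121 and 0.247 CPM in clone 2.4 and 13.5 and 14.6 in clone 2.5.

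The leading genes that fell included apical, secretory and keratinocyte genes. Msln, the cell-surface glycoprotein mesothelin, was at 151 and 182 CPM in wild type, 1.49 and 1.05 in clone 2.4, and 6.23 and 4.02 in clone 2.5, a fall of 5.71 ± 0.71 on the log2 scale (adjusted p = 0.00056). Both clones agreed, and clone 2.4 was the lower by 2.02 (adjusted p = 0.026). Ces1f and Ces1d, neighbouring carboxylesterases that hydrolyse lipids and drugs, fell by 3.75 ± 0.66 and 2.99 ± 0.59, with the caution that members of this family can share reads. Bpifb1, a secreted BPI-fold protein of airway and oral glands, fell from 23.6 and 27.5 to between 2.64 and 3.21, and Gdf15, a stress-induced member of the TGF-beta family, from 17.1 and 18.6 to between 1.32 and 3.52. Cd34, a surface sialomucin also carried by some hair follicle stem cells, fell from 58.0 and 72.0 to between 7.78 and 12, and Krtdap, a secreted protein of differentiating keratinocytes, from 38.1 and 47.8 to between 3.85 and 8.84. The remaining genes were Sprr2a3, a cornified envelope protein of a family with near-identical members (-3.17 ± 0.95), Armcx2 (-2.94 ± 0.79), Rgl3, an effector of Ras (-2.46 ± 0.70), and Nfatc4, a calcium-responsive transcription factor (-2.38 ± 0.49). All 12 agreed in direction in both clones, which the choice of leading genes required.

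Cldn3, a tight junction protein of simple epithelia at chr5:134986214-134987476, was the gene of this group on which the clones differed most. It was at 101 and 105 CPM in wild type, 0.121 and 0.247 in clone 2.4, and 13.5 and 14.6 in clone 2.5. Both clones were lower, by 9.11 and 2.88 on the log2 scale, but they differed from each other by 6.24 (adjusted p = 4.4e-12), and the value over both, -3.87 ± 1.24, passed narrowly (adjusted p = 0.045). The calls of Cldn3, Sprr2a3 and Bpifb1 over both clones were lost whichever of the 6 libraries was left out (adjusted p up to 0.134, 0.122 and 0.112). That of Armcx2 was lost without either wild type or either clone 2.4 duplicate (up to 0.0925), and that of Rgl3 without either wild type duplicate or clone 2.4 duplicate 1 (up to 0.106). Gdf15, Cd34 and Krtdap passed with the duplicates summed.

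Since Foxe1 is a forkhead factor, promoters of the leading genes were searched for the core forkhead motif GTAAACA on both strands in the 250 bases before each start in RefSeq's GRCm38.p6 table. Of 13 promoters found for the rising genes, 1 held it, that of Bbox1, and of 11 found for the falling genes 0 held it. Among promoters of all tested genes the share was 2.242% (323 of 14405), among those of genes that rose in both clones 1.836% (32 of 1743), among those of genes that fell in both 2.141% (44 of 2055), and over every promoter listed 3.166% (1040 of 32851). The shorter motif TAAACA, which lies within the longer one, was in 7.796% of promoters of tested genes, 8.721% of those that rose in both clones and 7.348% of those that fell. It was in 3 of the 13 promoters of the leading rising genes (23.077%) and 0 of the 11 of the leading falling genes, shares that were not tested. The Bbox1 promoter is shown because it carries the match. It lies at chr2:110305726-110305975 on the minus strand, and its capitals mark the reverse complement TGTTTAC, whose first base is 116 bases before the start.
Bbox1: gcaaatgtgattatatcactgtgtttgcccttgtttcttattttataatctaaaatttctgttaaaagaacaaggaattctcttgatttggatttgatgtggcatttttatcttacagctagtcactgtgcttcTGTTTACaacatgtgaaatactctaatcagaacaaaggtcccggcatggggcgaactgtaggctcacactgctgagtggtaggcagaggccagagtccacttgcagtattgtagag

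Genes of cell division fell together in the knock-out. All 32 genes of a mitosis list fell, with a median of -2.04 against 0.01 over all genes tested, and a range from -2.28 to -0.97. Both clones agreed for all 32, with medians of -2.23 in clone 2.4 and -1.82 in clone 2.5. In a direct test 3 of the 32 differed between the clones (7.68% of all genes tested did). Among all genes tested 16.2% were called lower. Mki67, a marker of cycling cells, was at 103 and 105 CPM in wild type, 24.9 and 22.7 in clone 2.4, and 27.6 and 31.3 in clone 2.5, and fell by 1.96 ± 0.21 (adjusted p = 0.00017). Top2a, which untangles chromosomes, was at 138 and 144 in wild type, 27.2 and 30.6 in clone 2.4, and 37.7 and 41.4 in clone 2.5, and fell by 2.04 ± 0.23 (adjusted p = 0.00024). For both genes all 4 knock-out libraries lay below both wild type libraries, as they did for 26.6% of all genes tested. The spindle checkpoint kinase Bub1 fell by 2.28 ± 0.28, the motor Cenpe by 2.26 ± 0.20, the spindle motor Kif11 by 2.24 ± 0.27, the kinase Aurkb by 2.24 ± 0.23, and Anln, an organiser of the cleavage furrow, by 2.05 ± 0.15. Foxm1, the forkhead factor that drives mitotic genes, fell from 20.8 and 20.4 to between 4.38 and 6.61 (-1.88 ± 0.17, adjusted p = 1.1e-05). The 32 calls were kept whichever single library or clone was left out, and 27 of them with the duplicates summed, where Mki67, Top2a, Aurkb, Cenpe, Anln and Foxm1 passed.

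**Figure D2:**
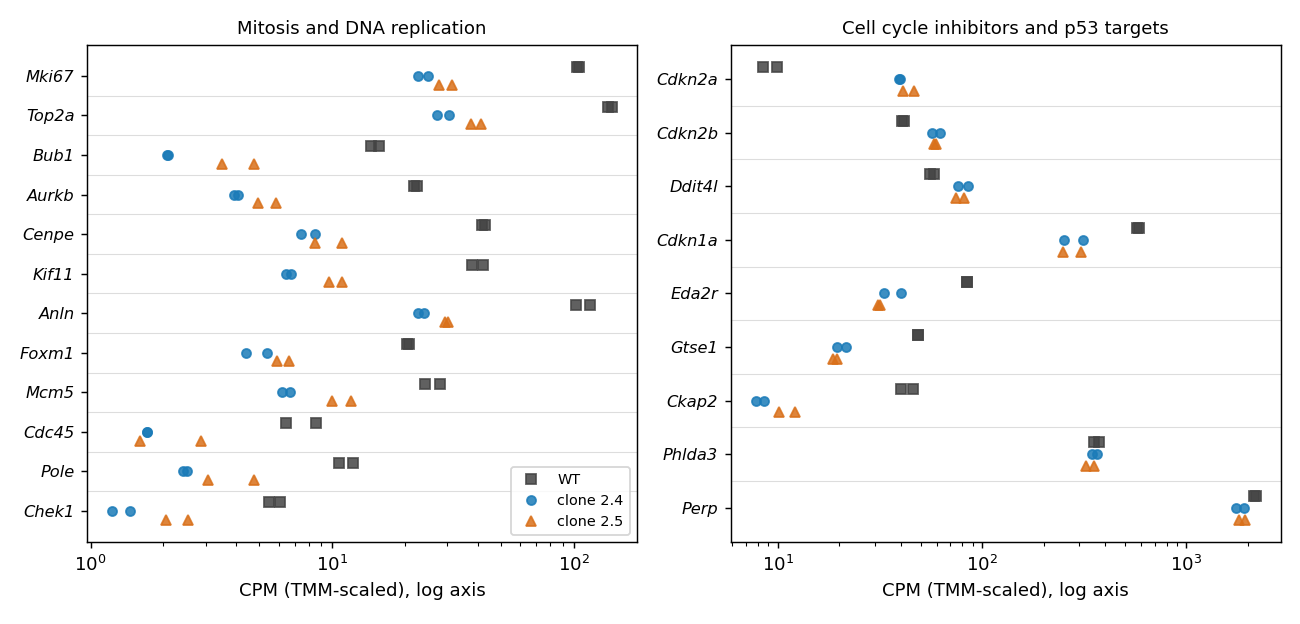
Each row is a gene and each mark is 1 library, with TMM-scaled CPM on a log axis for wild type (squares), clone 2.4 (circles) and clone 2.5 (triangles). In the left panel all 4 knock-out libraries lie below both wild type libraries for each of the 12 genes of mitosis and DNA replication. Over all genes tested this held for 26.6%. In the right panel Cdkn2a, Cdkn2b and Ddit4l lie above wild type, Cdkn1a, Eda2r, Gtse1 and Ckap2 below it, and Phlda3 and Perp did not pass the test.

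Promoters of many mitotic genes are known to carry a CHR element, whose core is TTTGAA, and CCAAT boxes. Of the 32 genes of the list, 26 matched promoters in RefSeq's table, 28 in all, covering 250 bases before to 50 after the start. Of these 28, 22 held TTTGAA (78.571%) against 12.294% of promoters of tested genes and 17.893% of all promoters, and 22 held CCAAT (78.571%) against 37.494% and 37.408%, with both strands searched and neither motif holding the other. Both motifs stood in 19 of 28 (67.857%) against 4.95% and 6.953%. These shares describe the list, whose genes were chosen for mitosis and not for their promoters. The promoters printed are those of Top2a, Kif11 and Bub1. In the 250 bases before the start, Top2a held 6 CCAAT boxes and 2 TTTGAA cores, and Kif11 held 1 of each. Bub1 held 2 CCAAT boxes and no TTTGAA in those 250 bases. The 50 bases after the start, which the shares above include, are not printed. Whether Bub1 is among the 22 promoters with TTTGAA is therefore not shown. Whether either motif bears on the falls was not tested. Capitals mark both motifs or their reverse complements. They lie at chr11:99024190-99024439 (minus strand), chr19:37376132-37376381 (plus strand) and chr2:127831860-127832109 (minus strand).
Top2a: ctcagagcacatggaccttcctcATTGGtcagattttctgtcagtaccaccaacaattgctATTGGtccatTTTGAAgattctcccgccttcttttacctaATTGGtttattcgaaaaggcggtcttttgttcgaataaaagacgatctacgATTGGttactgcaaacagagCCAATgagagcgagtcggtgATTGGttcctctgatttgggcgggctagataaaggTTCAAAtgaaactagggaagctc
Kif11: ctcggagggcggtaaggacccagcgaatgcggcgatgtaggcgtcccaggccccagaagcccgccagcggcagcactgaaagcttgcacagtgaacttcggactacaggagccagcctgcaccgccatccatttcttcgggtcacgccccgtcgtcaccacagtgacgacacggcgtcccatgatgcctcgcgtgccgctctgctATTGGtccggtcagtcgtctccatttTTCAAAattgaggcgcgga
Bub1: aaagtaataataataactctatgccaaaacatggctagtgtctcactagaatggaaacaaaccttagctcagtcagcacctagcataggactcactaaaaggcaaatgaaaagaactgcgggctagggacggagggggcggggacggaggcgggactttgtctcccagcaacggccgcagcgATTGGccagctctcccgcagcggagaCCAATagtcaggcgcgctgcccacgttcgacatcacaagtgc

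DNA replication genes also fell, by less. Of 32 tested, 26 fell (81.25%) and 1 rose, with a median of -0.66, and both clones agreed for 22 of the 26 and for the 1 that rose. Mcm5, a subunit of the replicative helicase, was at 24.2 and 27.8 CPM in wild type, 6.21 and 6.66 in clone 2.4, and 9.97 and 12 in clone 2.5 (-1.58 ± 0.33, adjusted p = 0.006). Cdc45, which activates that helicase, fell by 1.92 ± 0.24, the polymerase Pole by 1.85 ± 0.28, and Chek1, the replication checkpoint kinase, by 1.67 ± 0.31. The 3 members with the highest level also fell, Rrm1, a subunit of ribonucleotide reductase, by 0.60 ± 0.09, Mcm7 by 0.65 ± 0.09 and the sliding clamp Pcna by 0.33 ± 0.10. The member that rose was E2f2, a transcription factor of S phase, from 3.36 and 3.76 to between 4.37 and 7.91 (0.82 ± 0.21, adjusted p = 0.0095), with both clones agreeing. The count of falling genes went from 26 to 20 without wild type duplicate 1, to 15 without duplicate 2 and to 5 with the duplicates summed, where Rrm1 and Cdc45 passed. E2f2 lost its call without wild type duplicate 1 (adjusted p = 0.0951), and Pcna without either wild type or either clone 2.4 duplicate (up to 0.18).

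Inhibitors of the cell cycle split. Of 36 cell cycle inhibitors and p53 target genes, 24 fell (66.7%) and 3 rose (8.33%), with a median of -0.41, and both clones agreed for 21 of the 24 and for all 3. Cdkn2a, which encodes p16 and ARF, was at 8.48 and 9.89 CPM in wild type, 39.2 and 39.6 in clone 2.4, and 46.4 and 40.9 in clone 2.5, and rose by 2.18 ± 0.11 (adjusted p = 4.3e-07). The 4 knock-out libraries lay close to one another and well above both wild type libraries. Over all genes tested, all 4 lay above both wild type libraries for 24.7%. Its neighbour Cdkn2b, which encodes p15, rose from 41.7 and 40.6 to between 56.6 and 62.0 (0.52 ± 0.07). Ddit4l, an inhibitor of mTOR signalling, rose by 0.47 ± 0.12. Cdkn1a, which encodes p21, moved the other way, from 584 and 576 in wild type to 251 and 312 in clone 2.4 and 250 and 304 in clone 2.5 (-1.05 ± 0.12, adjusted p = 0.00012). Eda2r, a death receptor under p53 control, fell by 1.31 ± 0.10, and the list's largest fall was in Ckap2 (-2.16 ± 0.20), which with Gtse1 (-1.29 ± 0.08) also acts on the spindle in mitosis. The high-count targets Perp, a desmosomal protein, and Phlda3, an inhibitor of Akt, stood at 2182 and 2155 against 1757 to 1930, and at 372 and 354 against 325 to 364, and did not pass. With the duplicates summed, 11 fell and 1 rose, with Cdkn1a, Cdkn2a, Eda2r, Ckap2 and Gtse1 past the threshold. Ddit4l lost its call without either wild type duplicate (adjusted p up to 0.097).

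Immediate early and AP-1 factors, which are induced within minutes of growth factor or stress signals, were lower. Of 24 tested, 13 fell (54.2%) and 1 rose, with a median of -0.32, and both clones agreed for 12 of the 13 and not for the 1. Atf3 was at 17.2 and 20.1 CPM in wild type, 3.76 and 7.64 in clone 2.4, and 5.28 and 7.77 in clone 2.5 (-1.61 ± 0.24, adjusted p = 0.00052). The AP-1 subunit Fosl2 fell from 351 and 359 to between 235 and 277 (-0.47 ± 0.06), the low-count Fosl1 by 1.84 ± 0.39, and Maff, a small Maf factor, by 0.92 ± 0.22. Junb, another subunit, stood at 341 and 342 against 314 to 351 and did not pass. Maff lost its call without wild type duplicate 1 or 2 (adjusted p up to 0.0666), and with the duplicates summed 4 members fell, Atf3 and Maff among them.

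Extracellular matrix genes moved in both directions. Of 29 matricellular and cartilage-like genes, 11 rose (37.9%) and 4 fell (13.8%), with a median of 0.47, and both clones agreed for 9 of the 11 and for the 4, although the clones differed from each other in 12 of the 29. Among all genes tested 7.68% differed between the clones. Thbs1, thrombospondin-1, was at 1077 and 1024 CPM in wild type, 2279 and 2331 in clone 2.4, and 2041 and 2014 in clone 2.5 (1.04 ± 0.11, adjusted p = 4.2e-05). Tnc, tenascin-C, rose from 2160 and 2111 to between 2774 and 3251 (0.50 ± 0.10), and Ccn2, a target of TGF-beta and YAP signalling, from 521 and 471 to between 1048 and 1229 (1.20 ± 0.24). Its relative Ccn1 fell from 78.2 and 65.9 to between 33.7 and 47.1 (-0.93 ± 0.15). Fbln1, fibulin-1, fell by 1.45 ± 0.26 and Nid1, the basement membrane linker nidogen-1, by 2.18 ± 0.63. The clones parted on Fn1, fibronectin, at 730 and 670 in wild type, 822 and 1219 in clone 2.4, and 411 and 444 in clone 2.5, where clone 2.5 alone was called (-0.71, adjusted p = 0.036) and the clones differed by 1.26 (adjusted p = 0.014). The count of rising genes went from 11 to 6 without either wild type duplicate. Nid1 lost its call without either wild type or either clone 2.5 duplicate (adjusted p up to 0.127).

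Of 29 collagens 7 rose (24.1%, against 14.2% over all genes) and 3 fell (10.3%, against 16.2%), with a median of 0.00, and both clones agreed for 7 and 2 of these. Col17a1, the hemidesmosome collagen that anchors basal keratinocytes, was at 2237 and 2241 CPM in wild type, 3537 and 3325 in clone 2.4, and 3465 and 3356 in clone 2.5 (0.61 ± 0.06, adjusted p = 2.8e-05). Col6a1 and Col6a2, chains of the microfibril-forming collagen VI, rose from 23.7 and 25.3 to between 53.2 and 83.1 and from 15 and 14.8 to between 44.4 and 70.1 (1.36 ± 0.34 and 1.83 ± 0.27). Col5a1 (1.89 ± 0.33) and the transmembrane collagen Col25a1 (1.85 ± 0.45) rose from low levels near 1 CPM or under. Col6a1 and Col25a1 lost their calls without either wild type duplicate (adjusted p up to 0.106 and 0.0979), and the counts of 7 and 3 went to 4 and 2 without duplicate 1 and to 3 and 1 without duplicate 2.

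Lists of signalling pathways differed in their balance of rising and falling genes. In the Hedgehog list 6 of 11 rose (54.5%), with a median of 0.40, and both clones agreed for 4 of the 6. Smo, the signal transducer of the pathway, was at 111 and 119 CPM in wild type but between 154 and 156 in all 4 knock-out libraries (0.43 ± 0.04, adjusted p = 3.4e-05). The co-receptors Boc (66.7 and 75.9 against 117 to 148) and Cdon (9.90 and 9.02 against 13.2 to 18.0) rose by 0.85 ± 0.11 and 0.75 ± 0.15, and the inhibitor Sufu by 0.23 ± 0.06. Gli1, a target of the pathway, was near the detection limit at 0.246 and 0.517 against 0.555 to 1.26, and was called in clone 2.4 but not in clone 2.5. The count went from 6 to 3 without wild type duplicate 1, where Sufu (adjusted p = 0.0828) and Gli1 (0.248) were lost, Gli1 also without either clone 2.4 duplicate. Boc passed with the duplicates summed.

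Of 21 Lgr receptors and Wnt feedback genes, 7 rose (33.3%) and 6 fell (28.6%), with a median of 0.18, and both clones agreed for 7 and 4. Lgr4, a receptor for the Wnt-enhancing R-spondins, was at 273 and 268 CPM in wild type, 404 and 429 in clone 2.4, and 385 and 363 in clone 2.5 (0.55 ± 0.07, adjusted p = 0.00016). Lgr5, the stem cell receptor of the same family, was low, at 0.406 and 0.517 against 1.06 to 1.99, and rose by 1.72 ± 0.35 with both clones agreeing, but did not pass with the culture as a block (limma, adjusted p = 0.114). Sfrp1, a secreted Wnt antagonist, rose from 96.5 and 108 to between 307 and 397 (1.77 ± 0.13, adjusted p = 5.3e-06). Axin2 and Notum, negative feedback targets of Wnt signalling, fell by 0.39 ± 0.13 and 1.05 ± 0.23, Axin2 in clone 2.4 alone. Axin2 lost its call with any 1 library left out other than clone 2.5 duplicate 2 (adjusted p up to 0.19), and Notum without wild type duplicate 2 (0.0528). The count of falling genes went from 6 to 3 without wild type duplicate 1 and to 2 without duplicate 2, and Sfrp1 alone passed with the duplicates summed.

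In the list of FGFs and receptor tyrosine kinases with their ligands, 15 of 36 rose (41.7%) and 9 fell (25%), with a median of 0.21, and both clones agreed for 13 and 7. Kit, the receptor for stem cell factor, was at 15.9 and 15.9 CPM in wild type, 39.1 and 39.3 in clone 2.4, and 55.8 and 45.9 in clone 2.5 (1.5 ± 0.14, adjusted p = 3e-05), and was higher in clone 2.5 than in clone 2.4 by 0.38 (adjusted p = 0.019). Ret, the receptor that acts with Gfra1, rose by 1.42 ± 0.32 from 0.855 and 0.808. The EGF receptor ligands Hbegf (67.9 and 69.9 against 27.2 to 32.8) and Ereg (30.8 and 31.0 against 11.2 to 15.2) fell by 1.18 ± 0.08 and 1.17 ± 0.15. Fgf7, a growth factor for epithelium made by mesenchyme, had 326 counts in wild type and 6 in the knock-out libraries, a ratio of 104 at equal depth (95% counting interval 47.4 to 286). Ret lost its call without wild type duplicate 2 (adjusted p = 0.0525). The count of rising genes went from 15 to 11 and 10 without wild type duplicate 1 and 2, and with the duplicates summed 2 rose and 3 fell, with Kit, Hbegf, Fgf7 and, at the threshold, Ereg among them.

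The TGF-beta and BMP list had 8 of 35 higher and 8 lower (22.9% each, against 14.2% and 16.2% over all genes), with a median of 0.11, and both clones agreed for 7 and 6. Its Id genes, inhibitors of bHLH factors that BMP signals induce, moved apart: Id4 was at 316 and 342 CPM in wild type against 734 to 983 in the knock-out (1.41 ± 0.11, adjusted p = 5.3e-06), while Id1 was at 7.79 and 9.19 and 1.11 to 1.95 (-2.40 ± 0.24, adjusted p = 2.9e-05). Inhbb, an activin subunit, rose by 1.06 ± 0.09, Fstl1, a secreted follistatin-like protein, by 0.89 ± 0.14, and Tgfbr3, the co-receptor betaglycan, by 0.92 ± 0.18. These 5 agreed in both clones, and Id1, Id4 and Inhbb passed with the duplicates summed. Of 21 Notch genes 8 rose (38.1%) and 3 fell (14.3%), with a median of 0.12, and both clones agreed for 6 and 3. Notch1 fell from 452 and 453 to between 273 and 306 (-0.64 ± 0.08, adjusted p = 0.00012), its ligand Jag1 rose from 159 and 167 to between 216 and 236 (0.46 ± 0.09), and its target Hey1 fell by 2.08 ± 0.44. The counts of rising and falling genes of the TGF-beta and BMP list went from 8 and 8 to 4 and 5 without wild type duplicate 1 and to 6 and 5 without duplicate 2. The 8 rising Notch genes went to 5 and 3, and Hey1 lost its call without duplicate 2 (adjusted p = 0.072), while Notch1 passed with the duplicates summed.

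Glandular genes moved in both directions. Of 5 tested BPI-fold and lipid-binding saliva proteins of 19 listed, 3 fell in both clones, with a median of -3.13. Bpifa1, a secreted BPI-fold protein, had 76 and 157 counts in wild type and 0 to 6 in each knock-out library, while Lcn2, lipocalin-2, was at 1507 and 1798 CPM against 1397 to 2163 and did not pass. The 3 falling genes went to 1 without any single library other than clone 2.4 duplicate 1, where 2 fell. Of 18 antimicrobial saliva proteins 7 rose (38.9%) and 5 fell (27.8%), with a median of 0.07, and both clones agreed for 6 and 5. Ltf, the iron-binding lactoferrin, was at 4428 and 4382 in wild type, 10480 and 10141 in clone 2.4, and 11930 and 10017 in clone 2.5, and rose by 1.27 ± 0.19 (adjusted p = 0.00053), both clones agreeing. Rising genes went from 7 to 4 without either wild type duplicate. Of 13 mucins and trefoil peptides 2 rose (15.4%) and 5 fell (38.5%), with a median of -0.93, and both clones agreed for 1 and 4. Muc5b, the gel-forming mucin of saliva, had 286 counts in wild type and 3 in the knock-out libraries, a ratio of 183 at equal depth (95% counting interval 62.0 to 893), and did not pass with the culture as a block (limma, adjusted p = 0.0521). Muc5ac, the gel-forming mucin of surface mucous cells, and the trefoil peptide Tff2 fell from 0.507 and 1.03 CPM to at most 0.303 and from 0.638 and 0.889 to at most 0.228, and lost their calls without wild type duplicate 2 (adjusted p = 0.0893 and 0.0923). Galnt6, an enzyme that starts mucin-type sugar chains, was at 58.3 and 66.3 in wild type, 15.6 and 13.4 in clone 2.4, and 70.0 and 72.3 in clone 2.5, and was lower in clone 2.4 alone. The 2 and 5 calls went to 0 and 3 without wild type duplicate 1 and 0 and 1 without duplicate 2. Bpifa1 and Muc5b passed with the duplicates summed.

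In the fluid secretion list 9 of 25 rose (36%) and 3 fell (12%), with a median of 0.17, and both clones agreed for 8 and 3. Slc12a2, the cotransporter that loads chloride into secretory cells, rose from 360 and 424 CPM to between 596 and 690 (0.72 ± 0.12, adjusted p = 0.0011), and Atp1b1, a subunit of the sodium pump, from 26.6 and 32.2 to between 45.6 and 62.9 (0.98 ± 0.16). The muscarinic receptors Chrm1 and Chrm3, through which nerves trigger saliva, rose from 0.217 and 0.129 to between 1.08 and 1.78 and from 3.48 and 3.47 to between 5.84 and 12.1. The water channel Aqp4 fell from 100 and 115 to between 21.4 and 36.2 (-1.98 ± 0.59), P2ry2, a receptor for extracellular ATP, by 1.13 ± 0.17, and the potassium channel Kcnn4 by 0.52 ± 0.11. Aqp4 lost its call whichever library was left out (adjusted p up to 0.14) and Chrm3 without either wild type duplicate (up to 0.0591), the 9 rising genes went to 6 without wild type duplicate 1, and P2ry2 alone passed with the duplicates summed.

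Tight junction genes fell in part. Of 17 claudins and tight junction genes, 7 fell (41.2%) and 2 rose (11.8%), with a median of -0.08, and both clones agreed for 5 and 1. Cldn4 was at 542 and 532 CPM in wild type, 178 and 225 in clone 2.4, and 250 and 294 in clone 2.5 (-1.18 ± 0.21, adjusted p = 0.0028). Cldn7 fell by 0.48 ± 0.11, and Cgn, the junction scaffold cingulin, by 0.89 ± 0.11. Cldn6, an embryonic claudin, had 108 counts in wild type and 4 in the knock-out libraries, a ratio of 51.9 (95% counting interval 19.7 to 194). Cldn2, a claudin that lets cations pass, rose from 0.536 and 0.598 to between 2.51 and 4.42 (2.59 ± 0.45), but did not pass with the culture as a block (limma, adjusted p = 0.0972). The 7 falling genes went to 3 and 4 without wild type duplicate 1 and 2 and to 4 without either clone 2.5 duplicate, Cldn7 losing its call without wild type duplicate 1 (adjusted p = 0.0626), and Cldn6 alone passed with the duplicates summed.

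Few keratinocyte differentiation genes rose. Of 38 tested, 2 rose (5.26%, against 14.2% over all genes) and 6 fell (15.8%, close to the 16.2% over all genes), with a median of 0.07, and both clones agreed for 1 and 6. Krt23, a keratin of simple and glandular epithelium, rose from 29.3 and 24.8 CPM to between 64.4 and 69.9 (1.32 ± 0.09, adjusted p = 2.3e-06). Genes of the cornified envelope did not move together, as some fell and Sprr2d, given below, was called higher. Those that fell included Sprr1b (19.9 and 16.7 against 1.16 to 1.84) and Ivl, involucrin (1.71 and 2.67 against 0.464 to 0.698). Their changes were -3.67 ± 0.38 and -1.88 ± 0.34, and that of Rptn, repetin, was -2.59 ± 0.64. Sprr1a was at 2203 and 2197 in wild type and 824 to 1800 in the knock-out and did not pass, the spread between duplicates being wide. Sprr2d was at 16.7 and 20.9 in wild type, 35.9 and 46.5 in clone 2.4, and 163 and 119 in clone 2.5, and its call over both clones (2.28 ± 0.72, adjusted p = 0.043) held in clone 2.5 and not in clone 2.4. It was lost without either wild type or either clone 2.5 duplicate (up to 0.208), and that of Rptn without wild type duplicate 1 (0.113). Krt23 passed with the duplicates summed, as 2 of the falling genes did.

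Of 31 homeobox and patterning factors of the oral region 8 rose (25.8%, against 14.2% over all genes) and 4 fell (12.9%, against 16.2%), with a median of 0.04, and both clones agreed for 7 and 4. Six4, a homeobox factor, was at 49.4 and 55.7 CPM in wild type, 34.6 and 36.5 in clone 2.4, and 26.8 and 28.3 in clone 2.5 (-0.74 ± 0.12, adjusted p = 0.00103 by edgeR), both clones being lower than wild type and clone 2.5 differing from clone 2.4 by -0.37 ± 0.10 (adjusted p = 0.0371). Osr2, a factor of palate growth, had 3.71 and 3.44 in wild type and at most 0.0951 in any knock-out library (-6.18 ± 0.92), and both clones were lower. Dlx5, of the jaw, rose from 1.01 and 1.39 to between 3.88 and 7.68 (2.29 ± 0.30), and Shox2, of palate and limb, from 0.0870 and 0.129 to between 0.729 and 2.55 (3.84 ± 1.00). Pax9, a factor of oral epithelium and tooth, stood at 192 and 212 against 193 to 219 and did not pass. Shox2 lost its call without either wild type duplicate (adjusted p up to 0.124), and the 8 rising factors went to 4 without duplicate 2.

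Among forkhead factors 4 of 24 tested rose (16.7%, against 14.2% over all genes) and 6 fell (25%, against 16.2%), both clones agreeing for these. Another 2, Foxe1 among them, had opposite calls in the clones (0.454% of all genes tested did). Foxf2 and Foxm1 are given above. Foxp1 rose from 174 and 172 CPM to between 225 and 235 (0.42 ± 0.07) and Foxo1 from 223 and 242 to between 288 and 346 (0.47 ± 0.10), while Foxj2 fell by 0.44 ± 0.07, Foxk2 by 0.36 ± 0.07 and Foxo6 by 0.91 ± 0.16. In the list of SOX factors and p63, 5 of 13 rose (38.5%) and 1 fell, with a median of 0.37, and both clones agreed for the 5 and not for the 1. Sox9, a progenitor factor of ducts and cartilage, was at 397 and 392 in wild type and 505 to 536 in the knock-out (0.40 ± 0.10), Sox13 rose by 0.48 ± 0.09, and the low Sox5 and Sox8 by 1.38 ± 0.28 and 3.25 ± 0.73. Foxo1 (adjusted p = 0.0553) and Sox8 (0.073) lost their calls without wild type duplicate 1, and Sox9 without either (up to 0.0762). The rising forkhead factors went from 4 to 2 and the SOX factors from 5 to 3 without wild type duplicate 1.

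The glycolysis and hypoxia list split the clones. Of its 32 genes 9 fell (28.1%, against 16.2% over all genes) over both clones, with a median of -0.43, but the median was -0.57 in clone 2.4 and -0.21 in clone 2.5, 18 of the 32 were called in 1 clone alone (20.9% of all genes tested were), and 11 differed between the clones (7.68% of all genes). Ldha, which makes lactate, was at 1447 and 1515 CPM in wild type, 899 and 1082 in clone 2.4, and 1289 and 1474 in clone 2.5, and was lower in clone 2.4 alone. Pkm, pyruvate kinase, was likewise lower in clone 2.4 alone, by 0.55 (adjusted p = 0.00035). Genes that fell in both clones included P4ha1, which hydroxylates collagen (-0.77 ± 0.10), Adm, adrenomedullin (-1.30 ± 0.25), Vegfa, the vascular growth factor (-0.99 ± 0.23), and Pfkp, phosphofructokinase (-0.59 ± 0.20), and Aldoa, aldolase, passed over both clones (-0.45 ± 0.16) but in clone 2.4 alone. Aldoa and Pfkp lost their calls with any 1 library left out other than clone 2.5 duplicate 2 (adjusted p up to 0.188 and 0.174), and Vegfa without wild type duplicate 2 (0.0797). The 9 went to 19 with clone 2.5 left out, to 6 with clone 2.4 left out or without clone 2.5 duplicate 1, and to 5 and 3 without wild type duplicate 1 and 2.

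Of 40 xenobiotic and glutathione enzymes 15 fell (37.5%) and 7 rose (17.5%), with a median of -0.25, and both clones agreed for 14 and 6. Cyp1a1, the inducible oxidase of aromatic compounds, fell from 1.48 and 2.47 CPM to between 0.0347 and 0.190 (-4.47 ± 0.68, adjusted p = 0.00061), and the carboxylesterases are given above. Without wild type duplicate 1 the counts were 13 and 3, without duplicate 2 they were 10 and 4, and with the duplicates summed 4 fell and 1 rose. Among 11 NADPH and dual oxidases 1 rose (9.09%) and 2 fell (18.2%), with both clones agreeing for these 3. Of the 11, 2 were called in opposite directions and 5 differed between the clones, against 0.454% and 7.68% of all genes tested. Duox1, an epithelial enzyme that makes hydrogen peroxide, rose from 50.5 and 53.8 to between 71.6 and 78.7 (0.52 ± 0.09), and Cybb, the oxidase of phagocytes, fell from 13.0 and 17.5 to 0.941 and 0.773 in clone 2.4 and 4.76 and 3.31 in clone 2.5 (-2.65 ± 0.58). Cybb lost its call without wild type duplicate 2 (adjusted p = 0.0593).

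The clones parted most over the clustered protocadherins, cell-surface recognition proteins of which each cell uses a few of many tandem genes. Of 39 tested 10 rose (25.6%) over both clones, with a median of 1.00, but both clones agreed for only 6 of the 10. Of the 39, 22 were called in 1 clone alone, 4 had opposite calls and 26 differed between the clones. Over all genes tested these shares were 20.9%, 0.454% and 7.68%. Pcdhga3 was at 0.725 and 0.969 CPM in wild type, 8.27 and 9.26 in clone 2.4, and 3.19 and 2.62 in clone 2.5. Pcdhb14 showed the reverse order of the clones, at 1.45 and 2.50, 4.57 and 4.95, and 12.7 and 12.5, as did Pcdhb12, at 0.290 and 0.452, 1.11 and 0.804, and 3.17 and 2.74. The genes have similar sequence, and some, Pcdhga3 among them, overlap others of their cluster, so reads may be split among them. The 10 went to 2 and 3 without wild type duplicate 1 and 2, where Pcdhb14 (duplicate 1, adjusted p = 0.117) and Pcdhb12 (either, up to 0.118) were lost.

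Cytosolic ribosomal proteins moved slightly. Of 86 tested 19 rose (22.1%), with a median of 0.15, or 0.07 in clone 2.4 and 0.23 in clone 2.5. Both clones agreed for 6 of the 19, while 50 of the 86 were called in 1 clone alone (20.9% of all genes tested were). Rps9, of the small subunit, was at 873 and 835 CPM in wild type, 1029 and 1026 in clone 2.4, and 1161 and 1144 in clone 2.5 (0.35 ± 0.08), and Rpl12 and Rps12 rose by 0.33 ± 0.07 and 0.36 ± 0.07. The 19 went to 44 with clone 2.4 left out, to 28 without its duplicate 1, to 4 with clone 2.5 left out, to 6 and 8 without its duplicate 1 and 2, and to 11 and 2 without wild type duplicate 1 and 2. Rps9 and Rpl12 lost their calls without wild type duplicate 2 (adjusted p = 0.0549 and 0.0665).

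**Figure D3:**
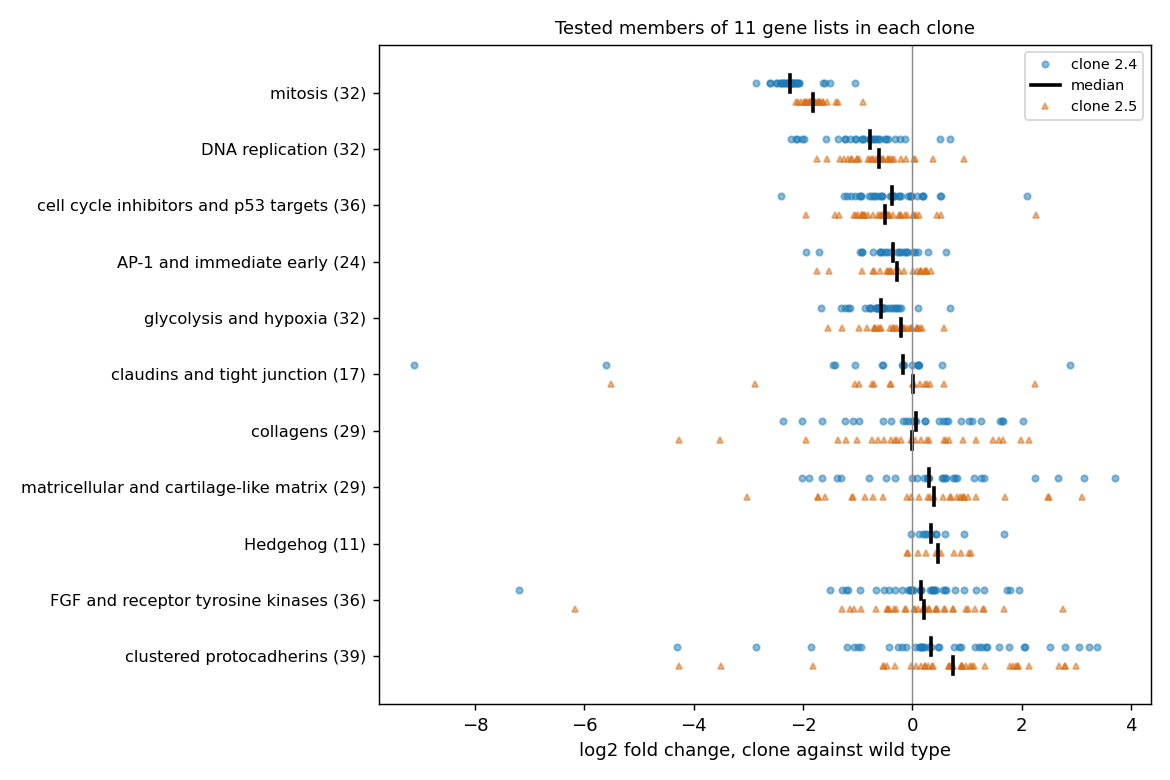
Each mark is the log2 fold change of 1 tested gene against wild type in clone 2.4 (circles) or clone 2.5 (triangles), for 11 gene lists with the number of tested genes in brackets, and a bar marks the median of each list in each clone. The mitosis list lies below 0 throughout, with medians of -2.23 and -1.82, while collagens, claudins and protocadherins spread to both sides of 0.

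The other 21 lists together had 499 tested members, a gene being counted in each list that holds it, of which 81 rose (16.2%) and 91 fell (18.2%), close to the 14.2% and 16.2% over all genes. Of 31 basal and stem epithelial genes 6 rose and 8 fell, of 13 desmosome genes 4 and 1, of 14 Wnt ligands 3 and 3, and of 41 axon guidance genes 11 and 13. Of 16 taste cell markers 2 rose and 3 fell. One of the latter was Otop1, the proton channel of sour taste cells, with 195 counts in wild type and 6 in the knock-out libraries, a ratio of 62.4 (95% counting interval 28.2 to 172), both clones agreeing. Of 32 folding and stress genes of the endoplasmic reticulum 1 rose and 10 fell (31.25%), and of 17 carnitine and fatty acid shuttle genes 5 rose (29.4%). Of 29 genes of cholesterol and fatty acid synthesis 2 rose and 5 fell, and of 89 respiratory chain genes 12 and 9. Of 31 interferon-stimulated genes 3 rose and 1 fell, of 22 antigen presentation genes 3 and 2, of 27 chemokines 4 and 5, of 12 clade B serpins 1 and 4, and of 25 apical glycoproteins 6 and 6. Of 22 gland transcription and maturation factors 5 rose and 4 fell, of 16 duct genes 3 and 5, of 11 myoepithelial genes 2 and 1, of 7 serous enzymes and proline-rich proteins 2 and 1, of 19 retinoic acid genes 4 and 6, of 16 insulin-like growth factor genes 1 and 3, and of 9 thyroid and palate genes 1 and 1. Both clones agreed for 61 of the 81 rising and 79 of the 91 falling members, and the counts went to 44 and 44 without wild type duplicate 1, to 45 and 34 without duplicate 2 and to 9 and 6 with the duplicates summed.

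Genes called in opposite directions in the clones numbered 74, of which 43 were expressed at the level set for naming. Those lower in clone 2.4 and higher in clone 2.5 included the neighbours Duox2 and Duoxa2 on chromosome 2, an oxidase and the factor that matures it. Duox2 was at 24.3 and 25.9 CPM in wild type, 4.63 and 4.93 in clone 2.4, and 58.4 and 39.0 in clone 2.5, and Duoxa2 at 7.99 and 8.50, 2.41 and 2.01, and 28.6 and 21.0. The clones differed by 3.35 and 3.49 (adjusted p = 0.0016 and 2e-06). The water channel Aqp5, through which acinar cells release fluid, was at 66.7 and 75 in wild type, 40.1 and 38.7 in clone 2.4, and 132 and 143 in clone 2.5, a difference between clones of 1.80 (adjusted p = 2.9e-06). Spock2, a matrix proteoglycan, Eid2, an inhibitor of differentiation, and Tle6, a Groucho-type co-repressor, followed the same order, with differences of 2.21, 2.49 and 1.96. Higher in clone 2.4 and lower in clone 2.5 was Col4a6, a basement membrane collagen, at 96.7 and 89.8 in wild type, 136 and 124 in clone 2.4, and 5.96 and 3.69 in clone 2.5 (difference -4.74, adjusted p = 2.3e-07). Eng, the TGF-beta co-receptor endoglin, was at 8.45 and 8.22, 29.2 and 27.1, and 2.28 and 2.01. The imprinted zinc finger gene Peg3 (-2.49), Upk3a, a uroplakin of urothelium (-2.18), Fgf11 (-1.69) and Cldn8 (-1.58) lay in the same order. None of these 12 passed over both clones, where the adjusted p ranged from 0.37 to 0.96.

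**Figure D4:**
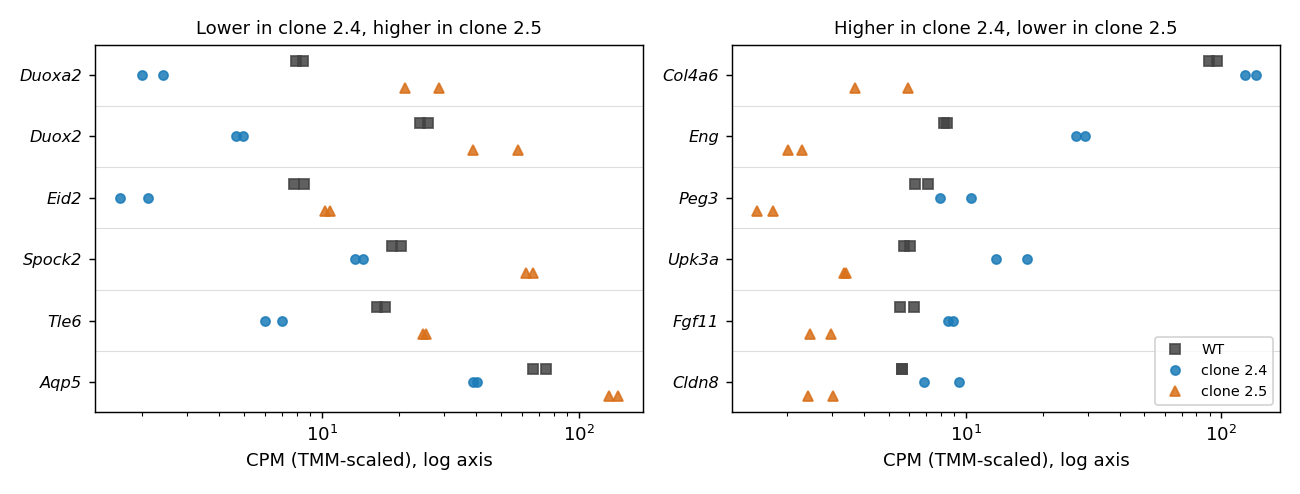
Each row is a gene called in opposite directions in the clones and each mark is 1 library, with TMM-scaled CPM on a log axis for wild type (squares), clone 2.4 (circles) and clone 2.5 (triangles). In both panels the 2 wild type libraries lie between the clones, and the duplicates of each clone lie together.

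The difference of the knock-out response between FoP and CVP organoids was tested as an interaction over all 12 libraries. It passed in 2733 of the 16282 genes (16.8%), 1264 with the larger value in FoP (7.76%) and 1469 with the smaller (9.02%). The CVP knock-out itself was called in 7825 genes (48.1%), 3953 of them higher (24.3%) and 3872 lower (23.8%). The CVP counts of each list below stand against these 2 shares. In the mitosis list 27 of 32 genes differed, all with the smaller value in FoP, and the list's median was -2.04 in FoP and -0.74 in CVP, where 21 of the 32 fell. Mki67 fell by 1.96 in FoP and had a value of -0.38 in CVP, a difference of -1.59 (adjusted p = 0.01), and Foxm1 differed by -1.64 (adjusted p = 0.0019). Of 32 DNA replication genes 20 differed, again all with the smaller value in FoP, with medians of -0.66 in FoP and 0.19 in CVP, where 5 rose and 4 fell. Pole was lower in FoP (-1.85) and at 0.89 in CVP, a difference of -2.74 (adjusted p = 0.0026). Cytosolic ribosomal proteins differed in 74 of 86, all but 1 with the larger value in FoP, at medians of 0.15 and -0.35, and 72 fell in CVP.

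**Figure D5:**
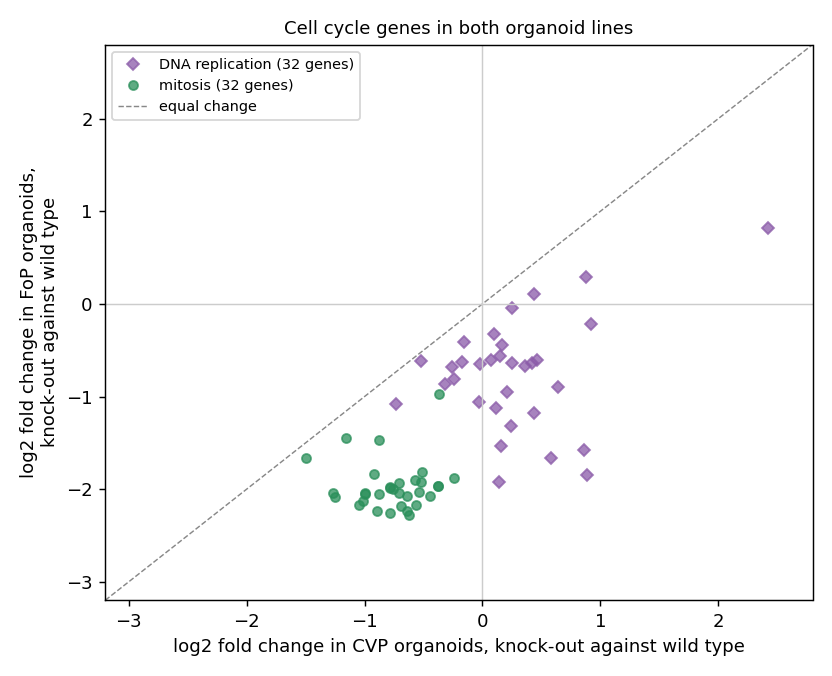
Each mark is 1 gene of the mitosis list (circles, 32 genes) or the DNA replication list (diamonds, 32 genes), with its log2 fold change, knock-out against wild type, in CVP organoids on the horizontal axis and in FoP organoids on the vertical axis. The dashed line marks an equal change in both, and every gene of both lists lies below it, the mitosis genes at a median of -2.04 in FoP and -0.74 in CVP.

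Among single genes at the level set for naming, the signed difference, the log2 fold change in FoP minus that in CVP, was highest for Ifitm1, an interferon-induced membrane protein (6.04, adjusted p = 0.029), Duoxa2 (5.41), Pigr, which carries immunoglobulin A into saliva (3.98), and Crispld2, a secreted factor of facial development (3.93). In CVP these genes fell by 8.34, 4.70, 4.51 and 3.8. Ifitm1 fell in each FoP clone, by 1.44 and 4.98, without passing over both (adjusted p = 0.079), Pigr was lower in clone 2.4 alone, and Crispld2 was called in neither clone. At the negative end were Col11a1, a fibrillar collagen (-3.44), Nfatc4 (-3.19), Angpt1, a ligand of the receptor Tie2 (-2.91), and Pole. Col11a1 had a value of 3.07 in CVP and was lower in FoP clone 2.4 alone, and Angpt1 had 3.14 in CVP and was called in neither FoP clone. Nfatc4 fell in both FoP clones and had a value of 0.81 in CVP. Osr2 and Sfrp1 also differed: Osr2 by -8.97, with 2.79 in CVP, and Sfrp1 by 1.69, with 0.08 in CVP. Without FoP wild type duplicate 1 or 2 the 2733 differences went to 1224 and 1258, and with the duplicates summed none passed edgeR's test, with 2589 genes at an unadjusted p under 0.05 and 3522 called by DESeq2 on the unsummed libraries.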

How the data were processed

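RNA of 12 tongue organoid libraries was sequenced after a stranded, poly(A)-selecting TruSeq preparation, per the labels' protocols. The authors deposited 1 table of whole-number counts per gene symbol, with no normalisation. STAR, featureCounts and the build hg38 stand in the submitters' processing notes, without versions. The rows carry mouse symbols, of which 93.5% of those tested matched RefSeq's mouse annotation. The aligner's settings and the strand setting of the counting stand in none of the sources used here, and reads of antisense, overlapping or near-identical genes may be shared. No column was left out.

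From these counts, edgeR 4.0.16 in R 4.3.3 fitted all 12 libraries with TMM scaling and the quasi-likelihood test, on genes with at least 10 counts in at least 2 of the 6 FoP libraries. A fit with 4 arms (FoP and CVP, wild type and knock-out) gave the comparison over both clones and the FoP minus CVP difference, and a fit with 6 cultures gave each clone against wild type and the clones against each other. P-values were adjusted by Benjamini-Hochberg over all 16282 genes. Depth per library is given in the report. Zero knock-out counts were set against a floor of 3 counts per library, and ratios from at most 10 counts carry an exact 95% interval, both covering counting error only. In every library more genes had 4 counts than 3, with 843 and 514 in FoP wild type duplicate 1. Whether both mates of a read pair were counted is not settled by the sources used here. If they were, these intervals are too narrow and the chi-square values of the duplicates too high. With the counts halved, 4987 genes passed over both clones. Alternatives used DESeq2 1.42.0 and limma 3.58.1. The fits were also run on simulated data. There the clones of a line were given equal levels, so that run does not cover the spread between clones.

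The genes named are Foxe1, the 12 largest changes in each direction called in both clones without overlap between groups and at a mean log2 CPM of at least 2, the 6 largest in each opposite direction between clones at that level, up to 4 changed members in each direction and the 3 most abundant members of each gene list, and the 4 largest line differences each way, without predicted genes. Not every such member of a list is named. The comparison, its 51 gene lists and these rules were chosen with earlier results of these data known.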

Additional observations from a re-analysis of the deposited data

Results flagged for a closer look

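In 3 genes 1 of the 4 knock-out libraries stood apart from the other 3 by a gap over Dixon's 95% limit for 4 values, which chance passes in about 1 group in 20, and 176 genes were examined. Cdc45 was at 2.86 CPM in clone 2.5 duplicate 2, where the other knock-out libraries held 1.60 to 1.72, and Rptn at 0.347 in the same library, against 0.0910 to 0.127. Atp1b1 was at 45.6 in clone 2.4 duplicate 1, against 61.2 to 62.9. In none of the 3 genes did that library reach the wild type range.

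The knock-out response differed between FoP and CVP organoids, by the interaction test, in 67 of the 176 genes. Of these, 37 had the larger log2 fold change in FoP and 30 the smaller. Over all genes tested the share that differed was 16.8%. Some of the 176 were named because they passed this same test, and others for a large change in FoP. The count of 67 was therefore partly set by that choice and is no test. The values below are FoP minus CVP. Among genes of cell division and replication the difference was -1.59 for Mki67, -1.33 for Top2a, -1.66 for Bub1, -1.34 for Aurkb, -1.47 for Cenpe, -1.60 for Kif11, -1.17 for Anln, -1.64 for Foxm1, -2.44 for Mcm5, -0.63 for Mcm7, -0.67 for Rrm1, -2.06 for Cdc45, -2.74 for Pole, -2.25 for Chek1, -1.45 for Ckap2 and -0.42 for Gtse1. All of these lay lower in FoP, as did the S-phase factor E2f2 (-1.60), which rose in both lines, and the mTOR inhibitor Ddit4l (-0.60).

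Ribosomal proteins lay the other way, at 0.50 for Rps9, 0.42 for Rpl12 and 0.60 for Rps12. Among epithelial and keratinocyte genes the difference was 0.56 for Epcam, -0.47 for Krt5, -1.18 for Krt14, 0.75 for Trp63, 2.46 for Krtdap, 1.77 for Krt23 and 3.69 for Sprr2d. The basal keratins Krt5 and Krt14 were higher in the CVP knock-out and did not pass in FoP. Glandular, junction and oxidase genes gave 1.03 for Ltf, 4.39 for Bpifa1, 5.78 for Cldn6, 5.22 for Tff2, 3.98 for Pigr, 1.00 for Duox1, 5.41 for Duoxa2 and 4.26 for Cybb. Those of Bpifa1, Cldn6 and Tff2 come from fitted values near 0 counts in the knock-out and have no firm size.

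Signalling genes gave 1.98 for Igfbp5, 2.78 for Wif1, 0.26 for Sufu, 0.66 for Boc, 0.33 for Lgr4, 1.44 for Notum, 1.69 for Sfrp1, -1.43 for Kit, 0.66 for Hbegf, -1.84 for Id1, 0.53 for Id4, -1.19 for Fstl1, 1.93 for Tgfbr3 and -2.91 for Angpt1. Of these, Kit and Fstl1 rose in both lines and more in CVP. Transcription factors gave -3.19 for Nfatc4, 0.45 for Junb, 1.18 for Maff, -8.97 for Osr2, 0.72 for Foxo1, -0.45 for Foxk2 and -0.88 for Foxo6, and that of Osr2 too rests on a knock-out level near 0. Matrix and surface genes gave -0.53 for Thbs1, 1.42 for Fbln1, -3.44 for Col11a1, 3.93 for Crispld2, 0.70 for P4ha1, 1.20 for Cd34, 2.62 for Pcdhga3, 2.50 for the transporter Slc6a14, 6.04 for Ifitm1 and 1.23 for the immune marker Cd68.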

How the results depend on the processing

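The 4955 genes over both clones ranged from 2732 to 4735 with 1 library left out (2780 and 2732 without wild type duplicate 1 and 2), were 4684 and 4392 with clone 2.4 and clone 2.5 left out, and were 374 with the duplicates summed and 189 in a test against a 2-fold change, of which 147 were lower. No call over both clones reversed in any alternative. A filter of 1 CPM in 2 libraries left 4977 calls, 2523 of them higher. Against a 2-fold change, clone 2.4 had 444 calls, clone 2.5 had 336, the clones differed in 119 genes, both agreed in 213 and the line difference passed in 8. Left-out libraries gave 3603 to 5375 calls in clone 2.4, 3967 to 5764 in clone 2.5, 519 to 1026 between the clones, 2705 to 3339 in both and 1224 to 2598 for the line difference. The clones differed in 1949 genes without a filter and in 2026 with the FoP libraries fitted alone. The line difference passed in 1423 genes with limma, and in 0 with summed duplicates (2589 at an unadjusted p under 0.05, 3522 with DESeq2).

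With a replicate block, which takes equal duplicate numbers as shared, 4680 genes passed over both clones, 5421 in clone 2.4, 5795 in clone 2.5, 1164 between the clones, 3884 in both and 2398 for the line difference. Over 10810 genes, deviations of same-numbered libraries correlated at -0.06 and -0.12 between wild type and clones 2.4 and 2.5, and at 0.31 between the clones. These values show no pairing of wild type with either clone, but same-numbered libraries of the clones shared part of their deviations. The source of this was not tested. Under the block the adjusted p was 0.0573 for Aldoa, 0.0523 for Aqp4, 0.0676 for Cldn3, 0.0572 for Pfkp, 0.053 for Sprr2a3 and 0.0618 for Sprr2d.

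Fn1 was at -0.70 with clone 2.4 left out, and with clone 2.5 left out Col4a6 was at 0.49, Duox2 at -2.39 and Duoxa2 at -1.89, each past the threshold against a main value of the other sign that did not pass. Over 176 genes and 3340 gene settings, 2940 kept their side of the threshold, 381 no longer passed and 15 newly passed. The 2940 include 51 changes of sign with no call in either fit. Of the 381, 104 arose in the test against a 2-fold change and 106 with the duplicates summed. The median of the mitosis list stayed between -2.23 and -1.81. Depth limits the genes under about 1 CPM.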
